A study of Mus musculus with 30 samples.

Results

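The comparison described here is that of Sp3KO with WT in HE1 cells, the first of the hemogenic endothelium populations sorted from differentiating mouse embryonic stem cells (ESC). It rests on 4 of the 30 RNA-seq samples of the series, 2 WT and 2 Sp3KO replicates of HE1, and on 14525 of the 14685 genes in the deposited table, those above 1 FPKM (fragments per kilobase of transcript, scaled to the size of the library) in at least 1 sample of the series. All cells came from the E14 mouse ESC line. The WT cells carried no deliberate mutation of an Sp gene, and the Sp3KO cells a knockout of Sp3 on both alleles, described by the study as Sp3-/-. The sources used here give 1 Sp3KO line, so the values describe that line. Flk1+ cells were purified from embryoid bodies and seeded into blast culture, and at day 2 HE1 cells were sorted as KIT+, Tie2+ and CD41-. The same populations of Sp1_deltaDBD cells, which lack the DNA-binding domain of Sp1, and the ESC, Flk1+, HE2 and progenitor samples of all 3 genotypes were used to estimate the spread between replicates and for the comparisons named as such.

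Sp3 is a ubiquitous zinc finger transcription factor that, like its close relative Sp1, binds GC boxes in promoters and can activate or repress transcription. Hemogenic endothelium is the endothelium from which blood cells arise. Its cells switch off the endothelial and adhesion programme, detach and switch on hematopoietic transcription factors such as Runx1, Gfi1 and Gfi1b in the endothelial-hematopoietic transition. HE1 cells stand before this transition, HE2 cells have gained CD41, and progenitors have left the endothelium.

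The knockout was visible in the targeted gene. Sp3 (chromosome 2, 72936427 to 72980446, minus strand, GRCm38) had 25.9 and 26.3 FPKM in the WT samples and 4.50 and 4.80 FPKM in the Sp3KO samples, a log2 fold change of -2.47 (SE 0.19, limma adjusted p = 7.28e-07). Some Sp3 RNA was therefore still counted. Sp1 had 25.6 and 24.9 FPKM in WT and 30.03 and 29.85 FPKM in Sp3KO, and was not called (log2 fold change 0.25, adjusted p = 0.387). Of the other Sp factors, Sp2 and Sp4 were at 0.972 to 5.02 FPKM and not called, and Sp5, Sp6 and Sp8 were at or below 0.212 FPKM in all 4 samples.

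The genes of the sort were not called. Kit had 16.9 and 26.8 FPKM in WT and 22.1 and 18.6 in Sp3KO, and Tek, the gene of Tie2, had 135 and 205 in WT and 146 and 154 in Sp3KO. Itga2b, the gene of CD41, was detected in spite of the CD41- gate, with 34.8 and 49.2 FPKM in WT and 83.3 and 81.8 FPKM in Sp3KO. Both Sp3KO samples lay above both WT samples, but the difference was not called (log2 fold change 0.99, SE 0.47, adjusted p = 0.188). With the replicate number as a block Itga2b was called higher (adjusted p = 0.0330). The endothelial markers Pecam1, Cdh5, Kdr, Eng and Esam together reached 986 to 1433 FPKM in the 4 samples. The myeloid markers and those of undifferentiated ESC were each below 0.5 FPKM in all 4, as were Pf4, Gp9 and Gp1bb. Hbb-bh1, an embryonic globin, was found at 26.5 to 63.6 FPKM.

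One library stood apart. WT replicate 1 had 78 genes with more than 4 times the FPKM of each of the other 3 HE1 samples, against 1 to 3 genes in the others, among genes that exceeded 3 FPKM. The epithelial markers Epcam, Cdh1, Krt8 and Krt18 summed to 711 FPKM in WT replicate 1, 63.0 in WT replicate 2, and 72.6 and 25.6 in Sp3KO. The 5 cardiac and smooth muscle markers, Acta2 and Tagln above all, summed to 1696 and 356 FPKM in WT and 195 and 123 FPKM in Sp3KO, and the 5 mesenchymal markers to 129 and 23.7 FPKM in WT and 12.97 and 9.92 FPKM in Sp3KO. Both WT samples were thus above both Sp3KO samples in the muscle and mesenchymal sums, while WT replicate 2 lay between the Sp3KO samples in the epithelial one. Acta2, Tagln, Actc1, Col1a1, Col3a1 and Pdgfrb followed this order singly. Tnnt2 (5.83 and 13.6 FPKM in WT, 5.96 and 10.8 in Sp3KO) and Pdgfra (1.02 and 1.10 in WT, 2.17 and 1.08 in Sp3KO) overlapped between the groups. So did Myl7 and Thy1, at or below 1.69 FPKM. No single one of these markers was called. Counts are therefore given without WT replicate 1 as well. In sorted bulk samples, fewer cells of a type and less RNA per cell cannot be told apart.

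Across all genes, limma on log2(FPKM + 0.1) called 875 genes higher and 708 lower in Sp3KO HE1 at an adjusted p below 0.05, 10.9% of those tested (6.02% higher, 4.87% lower). The values of the 2 groups did not overlap in 61.4% of all genes tested, so separate groups by themselves were common. They did not overlap in 1582 of the 1583 called genes, so separate groups add nothing to a call. The median absolute log2 fold change was 0.77 among the genes called higher and 1.05 among those called lower, and 290 and 373 of them, respectively, changed by more than 1. Without WT replicate 1 the counts were 384 and 265, and without Sp3KO replicate 2 they were 233 and 188. Without Sp3KO replicate 1 they were 386 and 360. These calls use the spread between replicates in all 15 groups of the series. With the spread of the 4 HE1 samples alone, only 3 genes were higher and 9 lower (Sp3, Rian, Meg3, Ccng1 and Tgfbi among the latter), and with that of the 6 HE1 samples of all genotypes Sp3 alone was called, with 3797 and 3165 genes at an unadjusted p below 0.05, respectively. A fold change threshold of 2, applied where the larger of the group means exceeded 3 FPKM, was passed by 270 genes upwards (1.84%) and 444 downwards (3.02%).

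**Figure D1:**
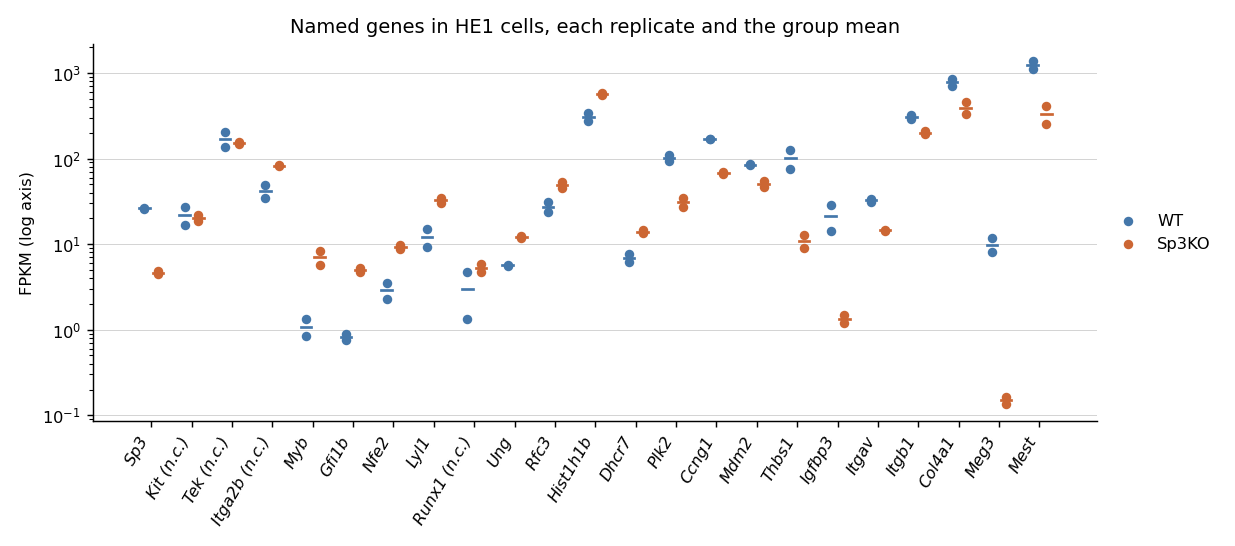
FPKM on a log axis of genes in the 2 WT (blue) and 2 Sp3KO (orange) HE1 samples. Points are replicates, bars their mean, and n.c. marks a gene that limma did not call. The 2 groups do not overlap in any gene shown as called, as in 1582 of all 1583 called genes, and they overlap in Kit and Tek.

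Promoters of genes that rose and fell are shown because Sp3 binds GC boxes. The 250 bases before the RefSeq transcription start (GRCm38.p6) are given on the strand of the gene, with the GC box core GGGCGG, or CCGCCC where it lies on the other strand, in capitals. Gfi1b and Myb, hematopoietic transcription factors, rose in Sp3KO HE1 cells, and Plk2, a target of p53, and Igfbp3, which binds insulin-like growth factors, fell. The sequences are from chr2:28621983-28622232, minus strand (Gfi1b), chr10:21160985-21161234, minus strand (Myb), chr13:110394794-110395043, plus strand (Plk2), and chr11:7213924-7214173, minus strand (Igfbp3).
Gfi1b: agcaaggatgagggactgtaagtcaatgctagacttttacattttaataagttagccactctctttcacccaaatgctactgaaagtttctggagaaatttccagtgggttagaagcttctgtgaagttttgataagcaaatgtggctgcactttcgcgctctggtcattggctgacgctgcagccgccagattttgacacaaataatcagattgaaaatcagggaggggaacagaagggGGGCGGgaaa
Myb: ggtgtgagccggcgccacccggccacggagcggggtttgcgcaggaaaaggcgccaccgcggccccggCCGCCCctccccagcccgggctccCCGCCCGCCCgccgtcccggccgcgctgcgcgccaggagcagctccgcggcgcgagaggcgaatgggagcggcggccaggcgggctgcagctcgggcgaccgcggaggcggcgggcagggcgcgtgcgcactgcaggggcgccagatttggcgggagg
Plk2: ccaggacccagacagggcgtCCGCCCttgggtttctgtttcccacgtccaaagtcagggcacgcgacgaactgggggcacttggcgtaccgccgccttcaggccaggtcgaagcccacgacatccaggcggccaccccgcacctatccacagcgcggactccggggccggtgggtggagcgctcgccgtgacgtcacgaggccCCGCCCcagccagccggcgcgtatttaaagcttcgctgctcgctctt
Igfbp3: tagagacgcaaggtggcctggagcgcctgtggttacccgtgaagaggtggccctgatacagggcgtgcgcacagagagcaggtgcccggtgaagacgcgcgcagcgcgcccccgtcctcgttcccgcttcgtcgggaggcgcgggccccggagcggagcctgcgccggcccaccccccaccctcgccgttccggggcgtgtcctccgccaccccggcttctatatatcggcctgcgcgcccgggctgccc
The Gfi1b window held 1 core, from 10 to 5 bases before the start. The Myb window held 3, of which the last 2 overlap (bases 158 to 149 before the start), and the Plk2 window held 2. The Igfbp3 window did not hold these letters. Among tested genes with a single RefSeq promoter, 5275 of 8861 windows of this length held the core on either strand (59.5%). The share was 53.4% for genes called higher (293 of 549) and 71.1% for genes called lower (300 of 422). A match of letters is a description of the window and does not show binding.

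Some hematopoietic transcription factors rose in Sp3KO HE1 cells. Myb (chromosome 10, 21124935 to 21160984), which maintains immature blood cells, had 1.32 and 0.852 FPKM in WT and 8.38 and 5.65 FPKM in Sp3KO, a log2 fold change of 2.59 (SE 0.41, adjusted p = 0.000694). Gfi1b (chromosome 2, 28609450 to 28621982), a repressor of endothelial genes in the emergence of blood, had 0.756 and 0.900 FPKM in WT and 4.73 and 5.24 FPKM in Sp3KO, a log2 fold change of 2.46 (SE 0.38, adjusted p = 0.000518). Nfe2, a factor of erythroid and megakaryocytic cells, rose from 2.26 and 3.51 FPKM to 9.76 and 8.84 FPKM (log2 fold change 1.69, adjusted p = 0.000265). The calls of Myb, Gfi1b and Nfe2 were kept without any one library. Lyl1, a relative of Tal1, rose from 9.31 and 14.9 FPKM to 30.04 and 34.99 FPKM, but its call was lost without WT replicate 1 (adjusted p = 0.109) or Sp3KO replicate 2 (0.0861).

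Of the 29 hematopoietic transcription factors tested, these 4 and Ikzf1, a lymphoid and myeloid regulator that stayed below 2 FPKM, were called higher (17.2%, beside 6.02% of all genes) and 0 lower. The median log2 fold change of the list was 0.60, beside 0.05 for all genes. Other factors known for the transition were not called. Runx1 had 4.66 and 1.33 FPKM in WT and 5.82 and 4.72 FPKM in Sp3KO (log2 fold change 1.04, SE 0.70, adjusted p = 0.379). Gata2 was at 16.4 and 17.3 FPKM in WT and 27.0 and 24.1 FPKM in Sp3KO (adjusted p = 0.0833), and Tal1 at 24.8 and 29.3 against 42.5 and 47.0 FPKM (adjusted p = 0.195). Gfi1 overlapped between the groups at 1.40 to 2.49 FPKM, and Spi1 stayed at or below 0.443 FPKM in all 4 samples.

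Some genes of the mature blood lineages rose. Of 34 erythroid genes, 5 were higher (14.7%, beside 6.02% of all genes; Car2, Sptb, Epor, Alas2 and Epb42) and 0 lower, with a median log2 fold change of 0.33. Car2, carbonic anhydrase 2, had 29.0 and 23.7 FPKM in WT and 50.4 and 50.8 FPKM in Sp3KO, a log2 fold change of 0.94 (SE 0.13, adjusted p = 0.000238). Leaving out WT replicate 1 brought the erythroid count to 2, Sp3KO replicate 1 to 1 (with 1 lower), and WT replicate 2 or Sp3KO replicate 2 to 3. The embryonic globin gene Hba-x overlapped between the groups at 6.18 to 36.7 FPKM, and Hbb-bh1 was not called (adjusted p = 0.549). Among 29 myeloid genes 4 were higher (13.8%), namely Was, Laptm5, Mpo and Vav1, all below 14 FPKM, and none of these calls remained without WT replicate 1 or Sp3KO replicate 2. Of the 22 Hox genes, which pattern the body axis, 3 of the Hoxd cluster were higher (13.6%, beside 6.02% of all genes). Hoxd4 rose from 0.897 and 1.51 FPKM to 6.20 and 5.09 FPKM, a log2 fold change of 2.17 (SE 0.38, adjusted p = 0.0017). Hoxd10 and Hoxd3 lost their calls without WT replicate 1. The Hox count was 1 without WT replicate 1 or Sp3KO replicate 1.

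Most DNA replication genes rose. Of 43 genes of the replication machinery and nucleotide synthesis, 25 were higher (58.1%, beside 6.02% of all genes), 0 lower, and 42 had a log2 fold change above 0, with a median of 0.47. Ung, the uracil glycosylase that removes uracil from DNA, had 5.64 and 5.62 FPKM in WT and 11.7 and 12.4 FPKM in Sp3KO, a log2 fold change of 1.08 (SE 0.13, adjusted p = 7.65e-05). Rfc3, a subunit of the clamp loader, rose from 24.0 and 30.9 FPKM to 45.0 and 52.6 FPKM (log2 fold change 0.84, adjusted p = 0.000394). Gins1, part of the replicative helicase, rose from 16.7 and 13.4 FPKM to 25.6 and 27.6 FPKM, and Pola2, of DNA polymerase alpha, from 21.0 and 19.2 FPKM to 30.5 and 33.7 FPKM. The changes were small but the replicates were close. Without WT replicate 1, 15 genes of the list were called, without Sp3KO replicate 2 12, all higher.

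Clustered histone genes, which are expressed in S phase, were higher with a larger median. Of 69 tested, 27 were higher (39.1%, beside 6.02% of all genes) and 0 lower, and all 69 had a log2 fold change above 0, with a median of 1.33. Hist1h1b, a linker histone, had 338 and 273 FPKM in WT and 558 and 591 FPKM in Sp3KO (log2 fold change 0.92, SE 0.12, adjusted p = 0.000198), and Hist1h2bk rose from 293 and 265 FPKM to 669 and 677 FPKM (log2 fold change 1.27, adjusted p = 0.000726). These genes are short, intronless and in part nearly identical, so the division of reads between single members is uncertain. Subtracting a trend with GC content and length left 21 called with a median of 0.89, and ended the call of Hist1h2bn (adjusted p = 0.263). Other short RNAs moved in the same direction: of 108 small nucleolar RNA genes 21 were higher and 4 lower (beside 6.02% and 4.87% of all genes), with a median log2 fold change of 0.84. The libraries were of total RNA after removal of ribosomal RNA, and replication-dependent histone RNA and small RNAs lack a poly(A) tail. Whether library preparation took part in these rises was not tested. Without WT replicate 2 the count of histone genes was 8, without Sp3KO replicate 1 8, without Sp3KO replicate 2 7 and without WT replicate 1 17.

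Some genes of sterol and lipid synthesis rose. Of 34 cholesterol and fatty acid synthesis genes 11 were higher (32.4%, beside 6.02% of all genes) and 0 lower, with a median log2 fold change of 0.41. Dhcr7, which makes the last step to cholesterol, had 7.58 and 6.11 FPKM in WT and 14.5 and 13.4 FPKM in Sp3KO, a log2 fold change of 1.02 (SE 0.16, adjusted p = 0.000582). Elovl6, a fatty acid elongase, rose from 12.8 and 13.1 FPKM to 20.4 in both Sp3KO samples (log2 fold change 0.65, adjusted p = 0.00104). Mvd and Acat2 rose too, but lost their calls without Sp3KO replicate 1 (adjusted p = 0.0769 and 0.0800), which brought the count of the list to 3. It was 5 without Sp3KO replicate 2 and 7 without either WT replicate. In Sp1_deltaDBD HE1 cells, compared with the same WT samples, 21 genes of this list were higher and 1 lower. Of 28 integrated stress response and amino acid genes, 3 were higher (10.7%, beside 6.02% of all genes) and 0 lower, and 15 had a log2 fold change below 0, with a median of -0.04. Among them Shmt1 and Shmt2, which make one-carbon units from serine, rose (log2 fold change 0.69 and 0.99, adjusted p = 0.0013 and 0.00203).

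Some chromatin genes rose. Of 37 DNA methylation and Polycomb genes 5 were higher (13.5%, beside 6.02% of all genes; Dnmt3b, Kdm2b, Phc1, Uhrf1 and Ring1) and 0 lower, with a median log2 fold change of 0.12. Dnmt3b, a de novo DNA methyltransferase, had 10.4 and 11.2 FPKM in WT and 23.1 and 22.6 FPKM in Sp3KO (log2 fold change 1.08, SE 0.21, adjusted p = 0.0031). Phc1 lost its call without each of the 4 libraries. Uhrf1 did so without WT replicate 2 or either Sp3KO replicate, and Kdm2b without either Sp3KO replicate. Kdm2b, Phc1 and Uhrf1 lost their calls without Sp3KO replicate 1 (adjusted p = 0.0564, 0.0877 and 0.105), which left 1 gene of the list called. The count was 2 without Sp3KO replicate 2 and 3 without either WT replicate. Among 26 pluripotency genes, Dnmt3b and Lin28b were called higher (7.69%, beside 6.02% of all genes), and Pou5f1, Nanog, Zfp42 and Sox2 were each below 0.5 FPKM.

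**Figure D2:**
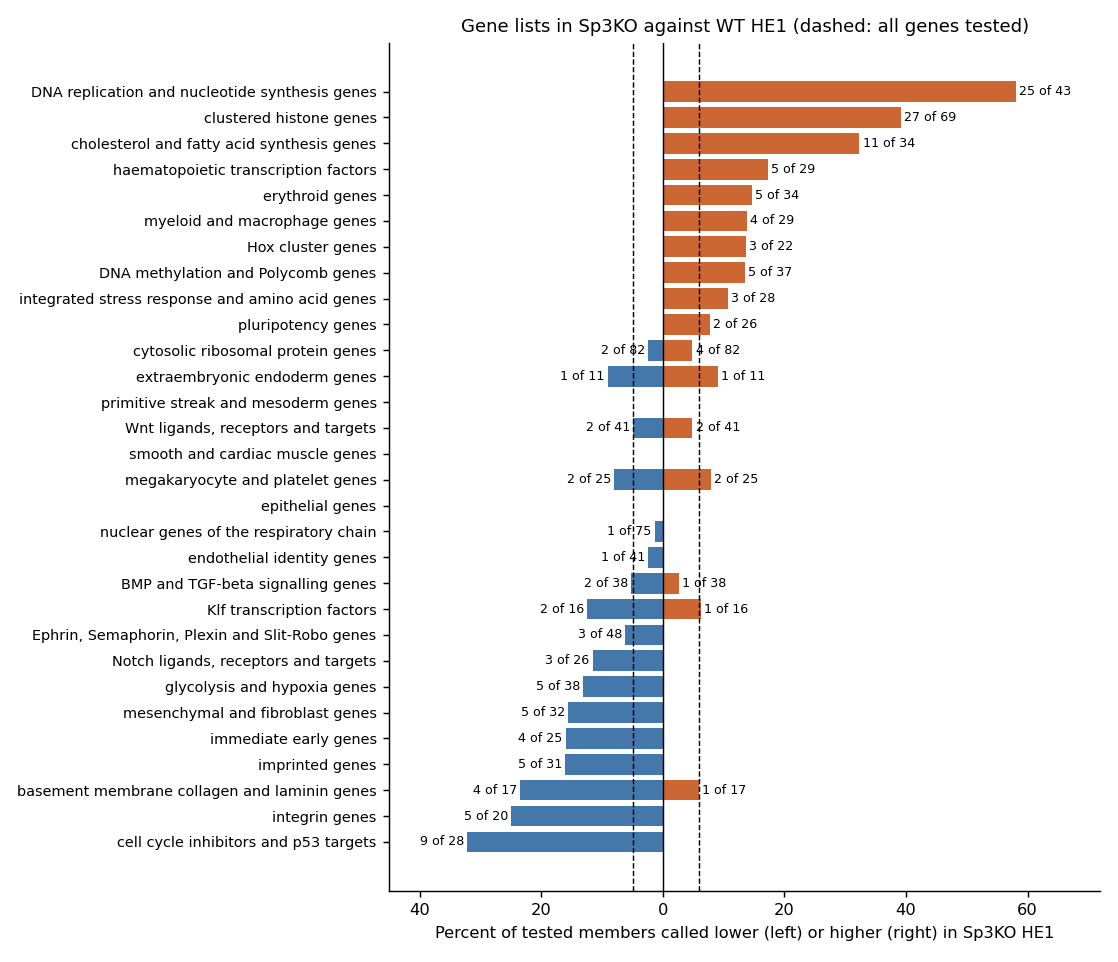
Percent of the tested members of each gene list that limma called higher (orange, to the right) or lower (blue, to the left) in Sp3KO HE1, with counts. The dashed lines give the share of all genes, 6.02% higher and 4.87% lower. Replication, histone and cholesterol genes stand farthest to the right, and p53 targets, integrins and basement membrane genes to the left.

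Some targets of p53 fell. Of 28 cell cycle inhibitors and p53 targets, 9 were lower (32.1%, beside 4.87% of all genes) and 0 higher, while 9 had a log2 fold change above 0 and the median of the list was -0.13. The 9 were Plk2, Ccng1, Perp, Mdm2, Cdkn1a, Zmat3, Tnfrsf10b, Phlda3 and Pmaip1, genes known as targets of p53. Plk2 (chromosome 13, 110395046 to 110400844), a kinase of the centrosome, had 94.9 and 110.5 FPKM in WT and 34.3 and 27.2 FPKM in Sp3KO, a log2 fold change of -1.74 (SE 0.20, adjusted p = 7.65e-05). Ccng1, a cyclin, fell from 171 and 167 FPKM to 70.2 and 66.03 FPKM (log2 fold change -1.31, adjusted p = 0.000105). Perp, a membrane protein of apoptosis and desmosomes, fell from 13.3 and 5.55 FPKM to 1.94 and 1.08 FPKM (log2 fold change -2.48, adjusted p = 0.00183). Mdm2, the ubiquitin ligase of p53, fell from 83.0 and 85.8 FPKM to 54.0 and 45.9 FPKM. Plk2, Ccng1 and Perp kept their calls without any one library, whereas Mdm2 lost its call without Sp3KO replicate 2 (adjusted p = 0.0728). The count was 4 without WT replicate 1 and 4 without Sp3KO replicate 2.

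Some genes of adhesion and matrix fell. Of 20 integrin genes, 5 were lower (25%, beside 4.87% of all genes; Itgav, Itga6, Itgb1, Itgb5 and Itga2) and 0 higher, with a median log2 fold change of -0.36. Itgav, the alpha chain of vitronectin receptors (chromosome 2, 83724397 to 83806916), had 33.5 and 31.4 FPKM in WT and 14.8 and 14.3 FPKM in Sp3KO, a log2 fold change of -1.15 (SE 0.14, adjusted p = 7.65e-05). Itgb1, the common beta chain, went from 292 and 325 FPKM to 209 and 194 FPKM (log2 fold change -0.61, adjusted p = 0.0185). Of 17 basement membrane collagens and laminins, 4 were lower (23.5%, beside 4.87% of all genes) and 1, Lamb3, was higher (5.88%, beside 6.02%), with a median of -0.74. Lamc1, a laminin chain, fell from 62.8 and 47.6 FPKM to 29.95 and 29.62 FPKM (log2 fold change -0.87, adjusted p = 0.00194), and Col4a1, a chain of collagen IV, from 700.0 and 850.2 FPKM to 459 and 331 FPKM. Itgav and Lamc1 kept their calls without any one library. Itgb1 lost its call without each of the 4 libraries (adjusted p = 0.0531 to 0.142), and Col4a1 without WT replicate 2 (0.101) or Sp3KO replicate 2 (0.193). The integrin count was 2 without WT replicate 1, 3 without Sp3KO replicate 1 and 1 without Sp3KO replicate 2, and that of lower basement membrane genes was 1 without Sp3KO replicate 2.

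Some mesenchymal genes fell, and these genes moved with the library that stood apart. Of 32 mesenchymal and fibroblast genes 5 were lower (15.6%, beside 4.87% of all genes; Cdh2, Ctgf, Tgfbi, Cyr61 and Col5a1) and 0 higher. In all, 30 had a log2 fold change below 0, and the median was -1.05. Tgfbi, a matrix protein induced by TGF-beta, had 28.0 and 24.0 FPKM in WT and 3.85 and 4.30 FPKM in Sp3KO (log2 fold change -2.64, SE 0.65, adjusted p = 0.0136), and both WT samples were above both Sp3KO samples. Its call was lost without WT replicate 1 (adjusted p = 0.0894) or either Sp3KO replicate (0.0779 and 0.0826). Col5a1, by contrast, was at 56.0 FPKM in WT replicate 1 and at 15.3, 11.1 and 7.37 FPKM in the other 3 samples. Without WT replicate 1 the median of the list was -0.61 and 1 gene, Cdh2, was called (adjusted p = 0.0497). Without Sp3KO replicate 1 2 were called, and without Sp3KO replicate 2 none was. The part of other cells in WT replicate 1 in these falls was not tested beyond leaving the library out.

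Some of the largest falls were of secreted and signalling proteins. Igfbp3 (chromosome 11, 7206086 to 7213923) had 14.1 and 28.6 FPKM in WT and 1.18 and 1.497 FPKM in Sp3KO, a log2 fold change of -3.82 (SE 0.38, adjusted p = 1.65e-05). Thbs1, thrombospondin 1, an inhibitor of angiogenesis (chromosome 2, 118111876 to 118127133), had 125 and 76.5 FPKM in WT and 12.7 and 8.96 FPKM in Sp3KO (log2 fold change -3.18, SE 0.40, adjusted p = 0.000105). The calls of both genes were kept without any one library. The calls of Anxa1, Emp1 and Actg2 as lower were lost without WT replicate 1 (adjusted p = 0.263, 0.249 and 0.192) and without either Sp3KO replicate. Actg2, a smooth muscle actin, was at 5.996 and 0.886 FPKM in WT and at the lowest value of each Sp3KO sample.

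Endothelial genes were rarely called. Of 41 endothelial genes, 1 was lower (2.44%, beside 4.87% of all genes) and 0 higher, with a median log2 fold change of -0.21. The gene called was Lyve1, a hyaluronan receptor of lymphatic and early endothelium, at 8.55 and 9.26 FPKM in WT and 1.18 and 2.04 FPKM in Sp3KO (log2 fold change -2.44, SE 0.31, adjusted p = 0.000112). Among 26 Notch genes, Hey1, Notch3 and Notch4 were lower (11.5%, beside 4.87% of all genes) and 0 higher, and all 3 calls were lost without Sp3KO replicate 2. Notch1, the receptor needed for arterial and hemogenic fate, had 52.6 and 61.1 FPKM in WT and 50.6 and 49.4 FPKM in Sp3KO (adjusted p = 0.637). Its ligands Dll4 and Jag1 and the arterial factor Sox17 were not called either (adjusted p = 0.372, 0.0766 and 0.688). Of 25 immediate early genes, 4 were lower (16%, beside 4.87% of all genes; Fosl2, Dusp1, Dusp6 and Fos). Fosl2, a component of AP-1, kept its call without any one library, with 16.4 and 10.9 FPKM in WT and 4.56 and 2.86 FPKM in Sp3KO (log2 fold change -1.86, adjusted p = 0.00143). Of 16 Klf factors, relatives of Sp3 that bind similar sites, Klf6 and Klf9 were lower (12.5%, beside 4.87% of all genes) and Klf15 higher (6.25%, beside 6.02%). Klf9 lost its call without WT replicate 2 or without either Sp3KO replicate. Klf15 lost its call without WT replicate 1 or without either Sp3KO replicate. It was low, at 0.314 and 0.904 FPKM in WT and 1.84 and 1.69 FPKM in Sp3KO. Klf6 fell from 140.5 and 185.4 FPKM to 70.6 and 59.4 FPKM, with its call lost without WT replicate 2 (adjusted p = 0.0702) or Sp3KO replicate 2 (0.0944). The immediate early count was 1 without either of these libraries and 2 without WT replicate 1.

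Some imprinted genes fell. Of 31 tested, 5 were lower (16.1%, beside 4.87% of all genes; Rian, Meg3, Plagl1, Mest and Nnat), 0 higher, and 26 had a log2 fold change below 0. Meg3 and Rian, non-coding RNAs of the Dlk1-Meg3 locus on chromosome 12, had 11.7 and 7.996 FPKM and 27.6 and 21.8 FPKM in WT, and 0.163 and 0.135 FPKM and 0.578 and 0.454 FPKM in Sp3KO. Their log2 fold changes were -5.29 (SE 0.79, adjusted p = 0.000399) and -5.33 (SE 0.82, adjusted p = 0.000518). The small RNAs AF357425 and DQ267102, also on chromosome 12, were at the lowest value of each Sp3KO sample. Mest, an enzyme of mesoderm, fell from 1111 and 1376 FPKM to 410 and 256 FPKM (log2 fold change -1.93, adjusted p = 0.000265), and Plagl1, a zinc finger factor, from 17.4 and 23.1 FPKM to 1.27 and 2.05 FPKM (log2 fold change -3.55, adjusted p = 0.00042). Nnat was at 40.4 FPKM in WT replicate 1 and 7.06 in WT replicate 2, and was not called without the former (adjusted p = 0.438). Meg3, Rian and Mest were lower in Sp3KO ESC and Flk1+ cells as well, before HE1 arises.

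The largest rises included several short RNAs and 2 secreted proteins. Fgf3, a fibroblast growth factor (chromosome 7, 144838083 to 144844436), had 0.528 and 0.516 FPKM in WT and 8.58 and 5.09 FPKM in Sp3KO, a log2 fold change of 3.43 (SE 0.33, adjusted p = 1.65e-05). Reln, reelin, a large extracellular protein (chromosome 5, 21884454 to 22344702), had 0.664 and 0.304 FPKM in WT and 5.03 and 4.40 FPKM in Sp3KO, a log2 fold change of 3.11 (SE 0.47, adjusted p = 0.000518). Of 41 Wnt genes, 2 were higher (4.88%, beside 6.02% of all genes; Fzd10 and Wnt2) and 2 lower (4.88%, beside 4.87%; Fzd1 and Sfrp2). The median log2 fold change of this list was -0.12. Fzd10, a Wnt receptor, rose from 8.37 and 9.18 FPKM to 25.7 and 29.1 FPKM (log2 fold change 1.63, adjusted p = 0.000518). The calls of Fgf3, Reln and Fzd10 were kept without any one library. Snora44, a small nucleolar RNA, had 2.999 and 10.8 FPKM in WT and 67.6 and 89.8 FPKM in Sp3KO. The rises of Ly6f, Lockd, Scarna3b, Snora20 and AF357399 were each lost without WT replicate 1, in which they were at 0.440 FPKM or less. Rps27rt had the largest log2 fold change among the genes called higher, 7.22, a call that was lost without each of the 4 libraries (adjusted p = 0.107 to 0.170), and it is a nearly identical copy of Rps27. Rps27rt had 8.54 and 8.45 FPKM in WT and 1150.0 and 1421 FPKM in Sp3KO, and Rps27 946 and 1038 FPKM in WT and 5.34 and 6.16 FPKM in Sp3KO. The sum of both copies was 954 and 1047 FPKM in WT and 1155 and 1427 FPKM in Sp3KO. Over the 30 libraries Rps27 was the higher copy in 11 and Rps27rt in 19, so neither change is taken as one of that gene.

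The chromosomes were alike with 1 exception. The median log2 fold change in HE1 was -0.22 over the 1205 genes tested on chromosome 11, and -0.01 to 0.10 on the other autosomes and the X. On chromosome 11, 158 genes were lower (13.1%) and 14 higher (1.16%), so that a chromosome with 8.3% of the genes tested held 22.3% of the genes called lower. The median of chromosome 11 was also the lowest in Sp3KO HE2 and progenitor cells, at -0.26 and -0.27, and was -0.16 in ESC and -0.12 in Flk1+ cells. In Sp1_deltaDBD HE1 cells it was -0.29 against the same WT samples. After subtraction of each chromosome's median, 680 genes were higher and 688 lower in all, and 40 higher and 54 lower on chromosome 11. Igfbp3, Ccng1 and Rpl27, which lie on chromosome 11, kept their calls, and Rpl23a did not (adjusted p = 0.393).

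**Figure D3:**
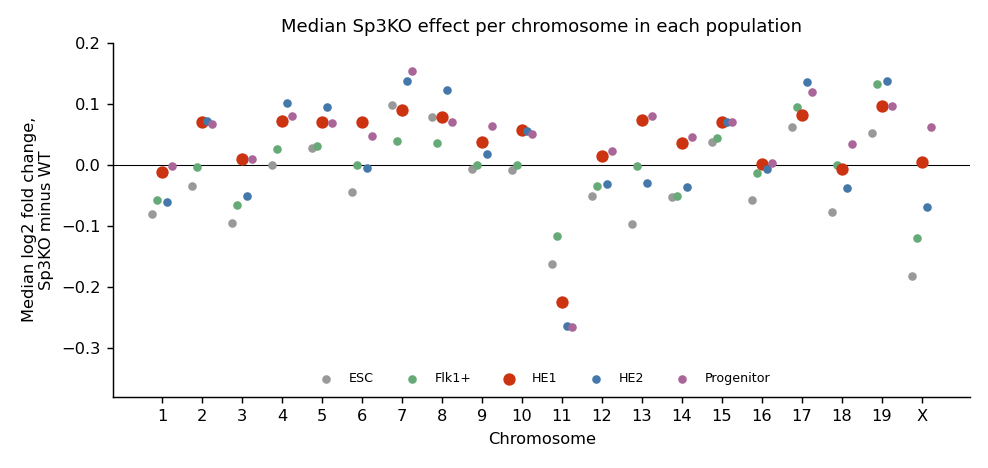
Median log2 fold change of Sp3KO against WT over the genes tested on each chromosome, in ESC, Flk1+, HE1 (large red points), HE2 and progenitor cells. In HE1, chromosome 11 lies at -0.22 and the others between -0.01 and 0.10.

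To ask how the HE1 change relates to the steps before and after HE1, stage genes were taken from Sp1_deltaDBD cells, which share no library with the samples compared. The calls of both comparisons used one spread per gene, from the replicates of all 15 groups. A gene of small spread was thus more readily called in both. Of 1415 genes higher in HE2 than HE1 there, 359 were higher in Sp3KO HE1 (25.4%, beside 6.02% of all genes) and 21 lower. Their median log2 fold change was 0.33, and 1108 of the 1415 were above 0. Of 1491 genes lower in HE2 than HE1, 244 were lower (16.4%, beside 4.87% of all genes) and 24 higher, with a median of -0.31. Of 3042 genes higher in HE1 than in Flk1+ cells, 313 were lower (10.3%) and 97 higher, with a median of -0.15. Of 3648 genes lower in HE1 than in Flk1+ cells, 477 were higher (13.1%) and 120 lower, with a median of 0.14. Genes of both directions of both steps thus differed from the median of all genes, 0.05, with HE2 genes up, HE1 genes down and Flk1+ genes up. Without WT replicate 1 the medians were 0.31, -0.33, -0.20 and 0.16, while the calls in these directions fell to 195, 94, 128 and 243. Genes of a step move together, and these are counts and not tests.

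**Figure D4:**
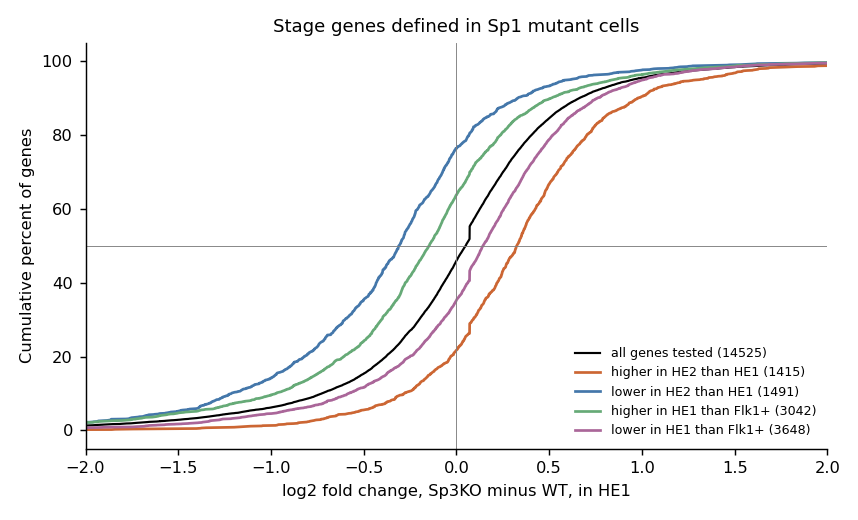
Cumulative percent of genes against their log2 fold change in Sp3KO HE1, for all genes tested (black) and for 4 sets that changed between Flk1+ and HE1 or between HE1 and HE2 in Sp1_deltaDBD cells. The set higher in HE2 lies to the right, with a median of 0.33, and the set lower in HE2 to the left, with a median of -0.31. The step at 0.07 is made by genes at the lowest value of every HE1 sample.

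The change was compared with that of the same knockout in the other populations, each against its own WT. In HE2, 420 of the 875 genes higher in HE1 were higher too (48.0%, and 41.5% of the 1013 called higher in HE2), and 405 of the 708 lower genes were lower (57.2%, and 40.8% of the 993). In progenitors the shared genes were 239 of 875 (27.3%, and 42.4% of the 564 higher there) and 275 of 708 (38.8%, and 39.7% of 693). In ESC 183 were shared upwards (20.9% of the HE1 genes) and 170 downwards (24.0%), and in Flk1+ cells 193 (22.1%) and 153 (21.6%). Of all genes tested, 6.97% were higher and 6.84% lower in HE2, and 3.88% and 4.77% in progenitors. The shares were 5.40% and 5.91% in ESC, and 6.69% and 5.94% in Flk1+ cells. All these calls used one spread per gene, so a gene of small spread was more readily called in several populations. By the study's methods, HE1, HE2 and progenitors were separated by one sort of day 2 blast cultures, so the populations are not independent of each other. Same-numbered WT samples of HE1 and HE2 deviated together from their group means (correlation over 10052 genes 0.382), and those of HE1 and progenitors too (0.394). In Sp3KO these correlations were lower, at 0.161 and 0.026.

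The difference of effects between populations was tested itself. The Sp3KO effect differed between HE1 and ESC in 314 genes (2.16%), between HE1 and Flk1+ cells in 584 (4.02%) and between HE1 and progenitors in 26 (0.179%). For HE2 limma called 0 genes, with 768 at an unadjusted p below 0.05 and a smallest adjusted p of 0.0891, for Car2. With the cultures as a block, an alternative chosen after seeing the data, the counts were 292, 589 and 234, and 37 for HE2. Car2 rose in HE1 and fell in ESC, by 1.09 on the log2 scale, a difference of effects of 2.04 (SE 0.19, adjusted p = 1.75e-05), and the difference from progenitors was 1.23 (adjusted p = 0.00583). Igfbp3 fell in HE1 and had a log2 fold change of -0.21 in Flk1+ cells and -0.20 in progenitors, differences of -3.61 in both (adjusted p = 0.00184 and 0.00536). Fgf3, abundant in Flk1+ cells at means of 55.2 FPKM in WT and 55.4 FPKM in Sp3KO, differed by 3.43 (adjusted p = 0.000918). Reln differed by 4.65 from ESC and by 4.46 from Flk1+ cells (adjusted p = 0.00325 and 0.00187). In ESC Reln was near 0, at means of 0.221 FPKM in WT and 0.0101 FPKM in Sp3KO.

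Myb, Gfi1b and Nfe2 were called in HE1 and not in HE2, where their log2 fold changes were 0.28, 0.65 and 0.42, but a difference between HE1 and HE2 was not shown for any of them. The levels of Gfi1b in ESC were near 0, at most 0.197 FPKM. The effect on Gfi1b in HE1 differed from that in Flk1+ cells by 3.49 (adjusted p = 0.00187) and from that in progenitors by 2.603, short of the threshold (adjusted p = 0.0532). Ung, Plk2, Ccng1 and Mest were called in the same direction in HE2 and progenitors, as were Fgf3 and Fzd10. Of the replication list 7 genes were higher in HE2 and 2 in progenitors, against 25 in HE1. In the replication list 1 gene was lower in each of ESC, Flk1+ cells and progenitors. The p53 list had 7 lower genes in HE2 and 6 in progenitors, against 9 in HE1, and also 9 in Flk1+ cells and 1 in ESC. Its higher genes were 5 in ESC, 3 in Flk1+ cells and 1 in HE2, against 0 in HE1 and 0 in progenitors. The histone list had 49 higher genes in ESC (median log2 fold change 2.26) and 21 in Flk1+ cells, against 27 in HE1, 18 in HE2 and 3 in progenitors, and the replication list 3 in ESC and 2 in Flk1+ cells.

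**Figure D5:**
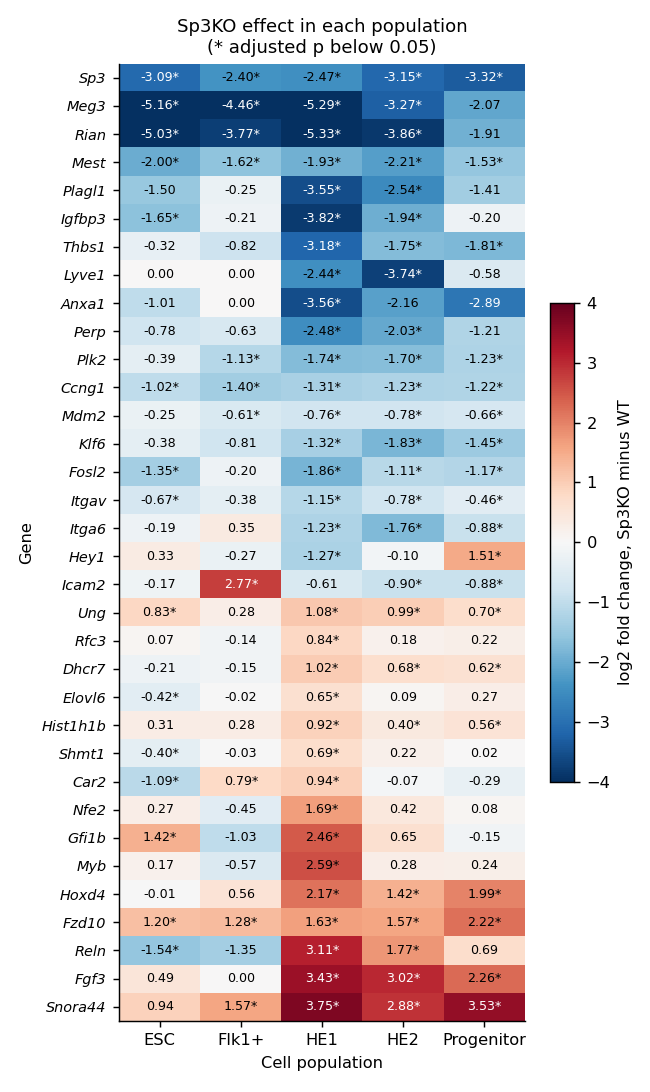
Log2 fold change of Sp3KO against WT for named genes in ESC, Flk1+, HE1, HE2 and progenitor cells. Numbers give the value, colours the same from blue (lower) to red (higher), and an asterisk an adjusted p below 0.05 within that population. Sp3 is lower in all 5 columns, and Myb, Nfe2 and Rfc3 have an asterisk in the HE1 column alone.

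The Sp1 mutant was set beside the knockout in the same population. Both comparisons used the same HE1 WT samples, so a deviation of these samples enters both, and only values are given. Sp3 itself was higher in Sp1_deltaDBD HE1 cells (log2 fold change 0.71, adjusted p = 0.021). Igfbp3 and Lyve1, at -3.82 and -2.44 in Sp3KO, were at -2.51 and -2.24 in Sp1_deltaDBD, and Reln, at 3.11, was at 2.67, all with an adjusted p of 0.00128 or less in the Sp1 mutant. Myb, Gfi1b and Nfe2 had log2 fold changes of 0.50, 0.13 and 0.08 there and were not called (adjusted p = 0.514, 0.910 and 0.904). Plk2 and Ccng1 had 0.00 and 0.11, and Meg3 and Mest -0.59 and 0.74, also not called. The replication list had 6 higher genes, the p53 list 3 lower and 1 higher, the histone list 0 higher and 1 lower, and the integrin list 0 in either direction.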

How the data were processed

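RNA-seq of 30 samples was used, 2 replicates of 3 genotypes in 5 populations, which the study describes as biological replicates. Libraries were of total RNA after depletion of ribosomal RNA. The authors aligned reads with HISAT2 2.1.0 to mm10, estimated FPKM with StringTie 1.3.3 and quantile normalised them, and the deposited table holds these FPKM values for 14685 genes. At 12742 ranks all samples had the same value, so read depth is unknown and no counting interval was given. The submitters' notes also name bedtools.

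Groups were taken from the sample labels. Genes above 1 FPKM in a sample (14525) were fitted as log2(FPKM + 0.1), with limma 3.58.1 in R 4.3.3, to the means of all 15 groups (15 residual and 3.92 prior degrees of freedom). Moderated tests were 2-sided, with Benjamini-Hochberg adjustment over all genes tested and a threshold of 0.05. A fold change understates the change of low genes, and 488 genes at the lowest value of all 4 HE1 samples have a log2 fold change of 0.07 from the pseudocount and the minimum of each sample alone. An exact permutation test of 2 against 2 samples cannot give p below 0.333. The members and gene lists were chosen with earlier results of these data known. Named genes were the 12 with the largest change in each direction among called genes with a mean over 3 FPKM in either group and no overlap of the groups, and up to 4 such genes of each of 32 lists. Added to these were 4 for each difference between populations, taken among the largest changes and the members of the lists, and the genes of the targeted family, sort and transition. Members of a list beyond these were named after their values were seen. Symbols were matched to a mouse annotation on GRCm38, with 14554 matched, 184 of them by an older symbol, and promoters to RefSeq GRCm38.p6. The fit was also run on simulated data, and no result given here rests on that run. The alternatives changed the pseudocount, the filter, the samples fitted, the blocking, the centring by chromosome, a GC and length trend, and the libraries included. Results for a few genes are not reported here.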

Additional observations from a re-analysis of the deposited data

Results flagged for a closer look

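The effect of the Sp3 knockout in HE1 differed from that in another population by limma's test of the difference itself. The genes named below had the smallest adjusted p among the members of the lists and the genes of largest change in HE1. Against Flk1+ cells and progenitors, genes outside these had a smaller adjusted p (6.37e-05 and 0.00334 by limma). The difference passed the threshold for 314 genes against ESC, 584 against Flk1+ cells and 26 against progenitors.

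Reln was near 0 in ESC, at means of 0.221 FPKM in WT and 0.0101 FPKM in Sp3KO. Against ESC, the log2 effect in HE1 minus that in the other population was 2.04 for Car2, 1.07 for Elovl6, 4.65 for Reln and 1.10 for Shmt1. Icam2, an endothelial adhesion molecule, had a log2 fold change of -0.61 in HE1. In Flk1+ cells its log2 fold change was 2.77, at low means of 0.269 FPKM in WT and 2.41 FPKM in Sp3KO. Against Flk1+ cells the difference of effects was -3.38 for Icam2, 3.43 for Fgf3, -3.61 for Igfbp3 and 4.46 for Reln. Against progenitors it was -3.61 for Igfbp3, 1.23 for Car2 and -2.77 for Hey1, a Notch target, whose adjusted p reached 0.164 under 1 of the alternatives.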

How the results depend on the processing

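The calls rest on 2 replicates a group, on a shared spread and on values whose depth is unknown. With other settings the counts of genes higher and lower in Sp3KO HE1 were 1322 and 1043 from the WT and Sp3KO samples of all populations, 0 and 1 from the 6 HE1 samples alone, and 3 and 9 from the 4 HE1 samples alone. With the replicate block they were 1057 and 922. The numbers of the replicates are shared by the labels only (correlation of same-numbered HE1 deviations 0.194), so they were not taken as pairs. Leaving out 1 library gave 233 to 626 higher and 188 to 543 lower. The fold threshold was passed by 264 to 353 genes upwards and 358 to 578 downwards without 1 library, and by 653 and 948 with no minimum mean and 133 and 172 when all 4 pairs had to pass. The number of genes whose effect differed from HE1, 314 for ESC, 584 for Flk1+ cells, 0 for HE2 and 26 for progenitors, was 579, 832, 8 and 73 with a pseudocount of 1, and 427, 790, 0 and 21 with the replicate block. With culture as a block, an alternative chosen after seeing the data, it was 292, 589, 37 and 234. Leaving out 1 library gave 40 to 297 for ESC, 174 to 553 for Flk1+ cells, 0 to 6 for HE2 and 11 to 23 for progenitors. The causes were not tested. Of the 99 named genes that were called, 0 reversed, and 39 kept their call without each of the 4 libraries.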
